A study of Mus musculus with 44 samples.

Results

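The immediate early genes Fos, Fosb, Jun, Junb, Egr1, Ier2, Atf3, Zfp36, Nr4a1 and Dusp1 were followed in migratory dendritic cells (DCs) of the tumour-draining lymph node (dLN). These 10 genes were taken by their symbols from the 14699 genes of the deposited expression table, and all 10 were found. All 10 passed the filter on low values that left 11963 genes for testing. The study asked how DCs change after melanoma cells are injected at different times of day. CD11c+ MHCII high cells were sorted from inguinal dLNs 24 h after the injection, which took place at ZT3, ZT9, ZT15 or ZT21, where ZT (Zeitgeber time) counts hours from lights on.

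Control mice, labelled WT, received B16-F10-OVA, a mouse melanoma line that makes the model antigen ovalbumin. They gave 20 libraries, 5 at each timepoint. Bmal1ΔcDC mice, labelled KO, carry a floxed Bmal1 gene on both chromosomes and 1 copy of a Cre gene driven by Clec9a, which is active in conventional DCs and their precursors; they received the same tumour cells and gave 12 libraries, 3 at each timepoint. Sham mice, labelled PBS and of genotype WT, received PBS instead of tumour cells and gave 12 libraries, 3 at each timepoint. All mice were females aged 8 to 12 weeks, each library came from 1 mouse, and every lymph node was digested with enzymes at body temperature before sorting. The paper names independent experiments, but the labels do not give the experiment or the collection day of a library. Neither can therefore be told apart from group or from timepoint.

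Immediate early genes are transcribed within minutes of a signal, without new protein synthesis, because the factors that switch them on (SRF with its TCF partners, CREB and NF-kB) are already in the nucleus or are activated by kinases. Their mRNAs are short-lived, and their products include transcription factors that pass the signal on and inhibitors that end it. In immune cells they respond to antigen, cytokine and pattern receptor signals, and in sorted cells they are also known to respond to enzymatic digestion of the tissue.

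Depth was estimated from the smallest step between the deposited CPM values, since read counts were not at hand. In 1000000 reads on genes the estimate was 20.1 to 29.0 in control tumour libraries (median 23.7), 29.4 to 55.8 in Bmal1ΔcDC libraries (median 37.0) and 28 to 49.6 in sham libraries (median 37.9). At these estimated depths Fosb, the member with the fewest reads, had at least 368 reads in every library. Arntl, the targeted gene in Bmal1ΔcDC mice, had 8.67 to 24.4 CPM (counts per 1000000 reads on genes) in control tumour, 11.5 to 38.0 CPM in Bmal1ΔcDC and 12.3 to 34.8 CPM in sham libraries. It was higher in Bmal1ΔcDC than in control tumour libraries (log2 difference 0.38, adjusted p = 0.0153). A count over the whole gene adds all exons, and the sources used here do not give which exon the Cre removes, so this count does not check the deletion and those libraries are named by their label throughout. The 9 DC markers summed to between 14539 and 28175 CPM over all libraries.

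The start regions of 8 members were at hand, each from 250 bases before to 50 bases after the start site, as RefSeq sequence of build GRCm38.p6 (mm10). The list of start regions used here holds no entry for Egr1 and Ier2. Letters TGACG, the core of the site that CREB and ATF proteins bind, stood in 6 of the 8 members on either strand (Fos, Fosb, Junb, Atf3, Nr4a1 and Dusp1), against 20.8% of 32851 start regions of the same length. The full site TGACGTCA, which contains TGACG, stood in Dusp1 alone of the members and in 1.79% of start regions. Jun held TGACATCA, the variant bound by Jun and ATF2, at bases -45 to -38 (3.62% of start regions), and Zfp36 held a CArG box, the SRF site, at -58 to -49 (1.63%). The EGR site GCGNGGGCG stood in Fosb, Nr4a1 and Zfp36 (5.55%), and the AP-1 site TGANTCA in none of the 8 members (7.81%). A match describes these letters and does not show that a factor binds there. Fos, Nr4a1 and Dusp1 are printed as members that moved together below and Jun as the member that stood apart, in lower case with TGACG, read on either strand, TGACGTCA and TGACATCA in capitals. They are examples only: Zfp36 held no TGACG, and its correlation with the mean of the other members, taken as below, was 0.742. The start site used for Nr4a1 lies inside the annotated span of the gene, which has several start sites.
Fos, chr12:85473640-85473939, plus strand: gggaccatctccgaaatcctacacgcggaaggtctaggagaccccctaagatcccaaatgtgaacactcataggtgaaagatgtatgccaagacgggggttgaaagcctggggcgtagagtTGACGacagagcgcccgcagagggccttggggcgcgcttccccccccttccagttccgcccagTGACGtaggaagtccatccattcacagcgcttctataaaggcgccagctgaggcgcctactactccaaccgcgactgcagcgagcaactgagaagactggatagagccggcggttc
Nr4a1, chr15:101266596-101266895, plus strand: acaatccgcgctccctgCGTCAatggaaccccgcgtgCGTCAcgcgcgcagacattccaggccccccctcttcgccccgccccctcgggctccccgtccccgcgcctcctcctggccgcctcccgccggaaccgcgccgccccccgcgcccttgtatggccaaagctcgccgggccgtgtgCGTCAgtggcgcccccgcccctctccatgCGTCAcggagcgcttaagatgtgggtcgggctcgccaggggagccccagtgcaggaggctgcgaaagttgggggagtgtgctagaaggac
Dusp1, chr17:26508423-26508722, minus strand: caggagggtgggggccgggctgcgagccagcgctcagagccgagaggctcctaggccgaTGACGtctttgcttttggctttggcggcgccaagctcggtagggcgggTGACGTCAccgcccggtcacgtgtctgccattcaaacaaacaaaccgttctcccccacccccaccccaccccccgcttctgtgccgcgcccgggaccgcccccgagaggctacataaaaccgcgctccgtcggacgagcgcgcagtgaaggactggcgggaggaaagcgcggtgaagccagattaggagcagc
Jun, chr4:95052173-95052472, minus strand: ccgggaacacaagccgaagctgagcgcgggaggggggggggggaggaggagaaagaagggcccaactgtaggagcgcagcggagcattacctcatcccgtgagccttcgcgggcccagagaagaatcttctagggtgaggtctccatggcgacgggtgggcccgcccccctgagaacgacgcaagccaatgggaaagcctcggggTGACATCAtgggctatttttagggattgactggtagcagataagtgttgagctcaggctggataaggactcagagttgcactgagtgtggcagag

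All 10 genes were read deeply enough to be compared in each library. Per kilobase of exon, Zfp36 and Junb were the most abundant members in control tumour libraries, at 671 ± 136 and 659 ± 118 CPM per kilobase (SD, n = 20), a difference smaller than their spread. Dusp1 followed at 407 ± 77.7, and Fos at 264 ± 94.4 CPM per kilobase. Ier2 (107 ± 43.4), Jun (60.0 ± 20.3), Atf3 (49.6 ± 12.2) and Egr1 (36.5 ± 24.4) lay lower, and of these Jun and Atf3 were less than 1 SD of either apart, Atf3 and Egr1 less than 1 SD of Egr1 but more than 1 SD of Atf3, and Ier2 and Jun more than 1 SD of either. Nr4a1 (21.3 ± 11.6) and Fosb (5.12 ± 2.02) were the lowest. In sham libraries Junb was at 1096 ± 119.9, Zfp36 at 958 ± 132, Fos at 748 ± 136 and Dusp1 at 629 ± 67.9 CPM per kilobase (SD, n = 12), where Fos and Dusp1 were less than 1 SD of Fos apart. In Bmal1ΔcDC libraries Fos was at 611 ± 134 and Dusp1 at 609 ± 86.5, less than 1 SD apart. Reads are not marked by strand, so reads of Junb and of Prdx2 on the other strand, and of Dusp1 and the overlapping Ergic1, cannot be told apart where the genes overlap.

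**Figure D1:**
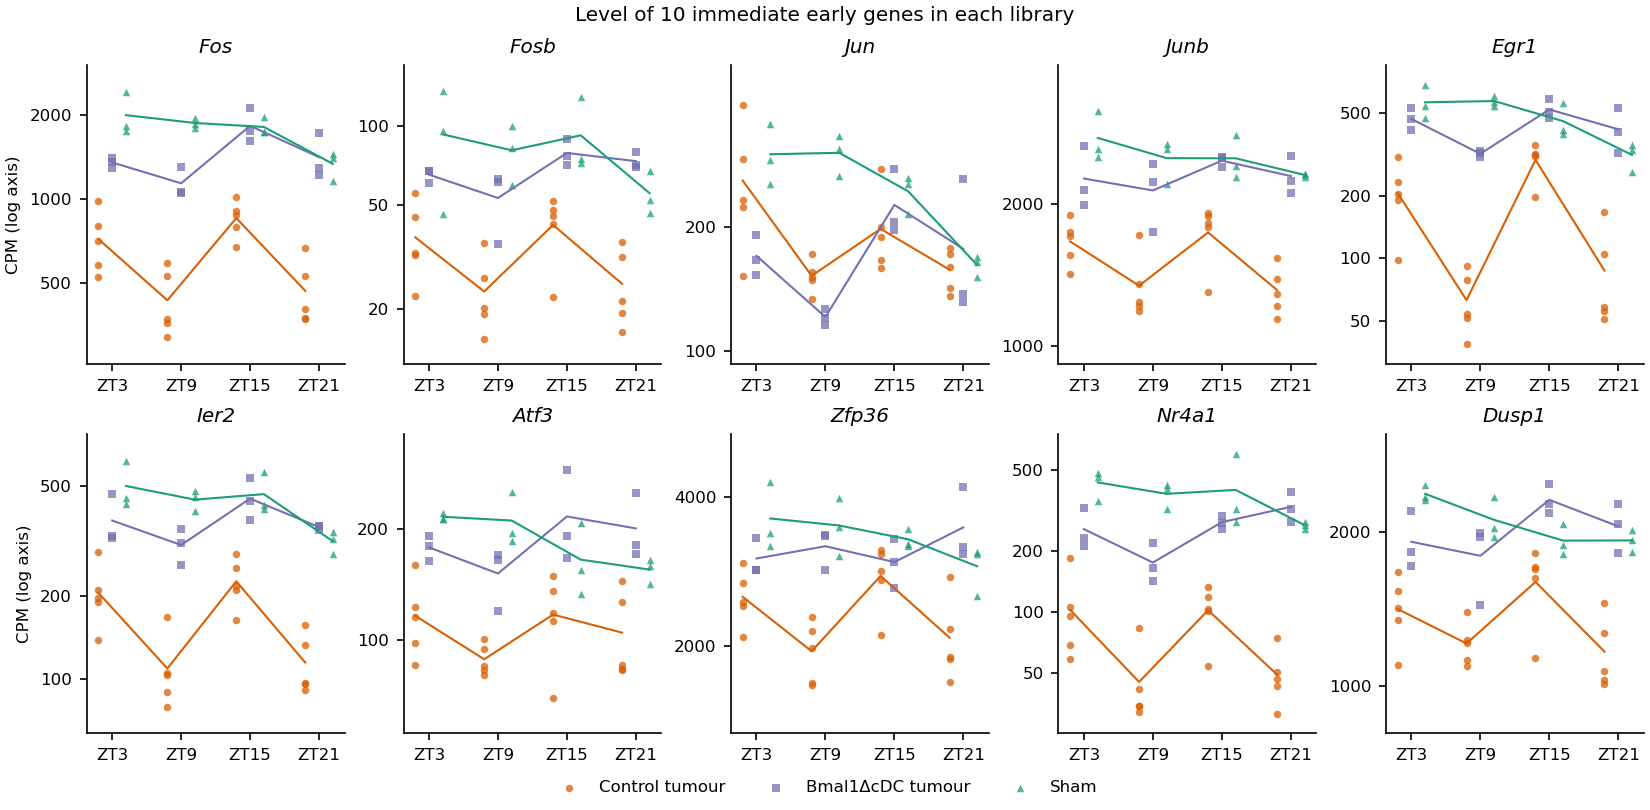
Level of each member in CPM (log axis) at ZT3, ZT9, ZT15 and ZT21; a point is 1 library and a line joins the means of control tumour (5 libraries a timepoint), Bmal1ΔcDC tumour (3) and sham (3). The control tumour line lies lowest for 9 members and is lower at ZT9 and ZT21 than at ZT3 and ZT15, and Jun is the member whose Bmal1ΔcDC line is not above it throughout.

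After tumour injection every member was lower in control mice than in sham mice when averaged over the 4 timepoints. Nr4a1, an orphan nuclear receptor induced by antigen receptor and inflammatory signals, was 4.96-fold lower by the ratio of mean CPM, Egr1, a zinc finger factor downstream of ERK, 2.91-fold, Fos 2.84-fold and Ier2, a small nuclear protein, 2.64-fold. All 10 passed an adjusted p of 0.05 in this direction, against 24.6% of the genes tested (of all calls in this comparison 35.1% were higher, or 46.2% with median-of-ratios scaling), and the median difference of the members was -1.08 on the log2 scale against -0.040 for all genes. Here and below, a difference is one of log2(CPM + 0.5), given with its standard error, tested with limma and adjusted over 11963 genes. In sorted cells in bulk, fewer cells that carry an mRNA and less mRNA in each cell cannot be told apart. In the same libraries the 12 macrophage and monocyte markers summed to a median of 719 CPM in control tumour and 2482 CPM in sham, and their part in these differences was not tested.

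For Nr4a1 the lowest, median and highest of the 20 control tumour libraries were 31.6, 63.7 and 185 CPM. The 12 sham libraries had 257, 339 and 602 CPM, and the 12 Bmal1ΔcDC libraries 143, 267 and 390.3 CPM. Every control tumour library lay below every sham library, and 1, at ZT3, lay within the Bmal1ΔcDC range. The difference from sham was -2.44 ± 0.17, adjusted p = 1.04e-11.

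Fos, the partner that makes AP-1 bind DNA tightly as a heterodimer with Jun proteins, had 319, 587 and 1016 CPM as lowest, median and highest in control tumour, 1160.0, 1783 and 2421 CPM in sham and 1056, 1333 and 2131 CPM in Bmal1ΔcDC libraries. All control tumour libraries lay below all libraries of both other groups, whose ranges overlapped each other. Control tumour differed from sham by -1.57 ± 0.11, adjusted p = 5.85e-12. Its close relative Fosb differed by -1.34 ± 0.17, adjusted p = 6.45e-07, with control tumour libraries at 15.3, 31.9 and 55.7 CPM and sham libraries at 46.3, 73.7 and 137 CPM, and here the ranges overlapped.

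Of the Jun proteins, which pair with Fos proteins, Junb had 1141, 1479 and 1913 CPM as lowest, median and highest in control tumour and 2212, 2469 and 3160.1 CPM in sham libraries, again without overlap. Its difference was -0.75 ± 0.069, adjusted p = 2e-09. Jun had 134, 169 and 394 CPM in control tumour and 151, 258 and 355 CPM in sham libraries, which overlapped over most of their range, and it had the smallest difference of the members, -0.41 ± 0.10, adjusted p = 0.00211. Atf3, a stress-induced bZIP factor that often represses its targets, differed by -0.82 ± 0.11, adjusted p = 9.72e-07, with 69.8 to 159.7 CPM in control tumour and 134 to 252 CPM in sham libraries.

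Egr1 had 38.6, 136 and 349.7 CPM as lowest, median and highest in control tumour, 259.6, 505 and 679 CPM in sham and 306, 439.7 and 584 CPM in Bmal1ΔcDC libraries. The control tumour libraries spread over the widest range of the 3 groups on the log scale, and their upper end reached into the other groups. The difference from sham was -1.84 ± 0.17, adjusted p = 1.49e-09, and that of Ier2 was -1.48 ± 0.11, adjusted p = 7.07e-11. The feedback members had smaller differences: Dusp1, a phosphatase that inactivates MAP kinases, differed by -0.64 ± 0.072, adjusted p = 5.87e-08, and Zfp36 (tristetraprolin), which speeds the decay of AU-rich mRNAs such as those of Tnf and Fos, by -0.53 ± 0.079, adjusted p = 4.92e-06. Control tumour libraries had 79.2 to 289 CPM of Ier2, 1011 to 1821 CPM of Dusp1 and 1662 to 3120.1 CPM of Zfp36, and sham libraries 284 to 617, 1814 to 2466 and 2526 to 4290.1 CPM in that order. The ranges of Ier2 and Dusp1 overlapped only at their ends, and those of Zfp36 over a wider stretch.

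Over all libraries, 3 members had every control tumour library below every sham library (Fos, Junb and Nr4a1), against 1.73% of all genes tested, and 1 member, Fos, had every control tumour library below every Bmal1ΔcDC library, against 0.435% of genes. Each of these counts compares 20 libraries with 12.

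**Figure D2:**
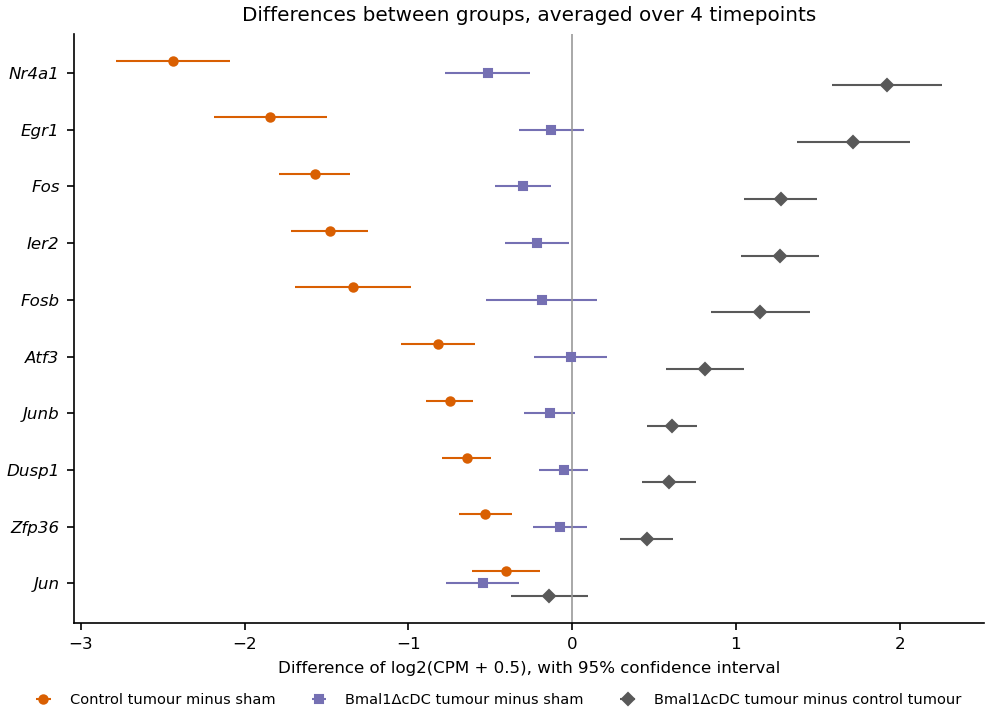
Differences of log2(CPM + 0.5) averaged over 4 timepoints with 95% confidence intervals, for control tumour minus sham (circles), Bmal1ΔcDC tumour minus sham (squares) and Bmal1ΔcDC tumour minus control tumour (diamonds). Control tumour lies below sham for 10 members and Bmal1ΔcDC above control tumour for 9, while the squares of 7 members stay between -0.21 and -0.0086. The squares compare groups that differ in both genotype and injection.

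In tumour-bearing Bmal1ΔcDC mice, 9 of the 10 members were higher than in tumour-bearing control mice, and Jun was not. Averaged over the timepoints Nr4a1 was 3.47-fold higher, Egr1 2.63-fold and Fos 2.32-fold. Higher calls were made for 23.5% of all genes tested (69.8% of all calls, or 49.9% with median-of-ratios scaling), and the median difference of the members was 0.98 against 0.098 for all genes. This comparison shares the 20 control tumour libraries with the one against sham, so both move together with the level of those libraries. The summed macrophage and monocyte markers had a median of 1660 CPM in Bmal1ΔcDC libraries, against the 719 CPM above, and their part was not tested.

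The difference of Nr4a1 between Bmal1ΔcDC and control tumour libraries was 1.92 ± 0.16, adjusted p = 1.31e-09, Egr1 1.72 ± 0.17, adjusted p = 1.43e-08 and Fos 1.27 ± 0.11, adjusted p = 1.24e-09. Ier2 was 1.27, Fosb 1.15, Atf3 0.81, Junb 0.61, Dusp1 0.59 and Zfp36 0.46, with adjusted p between 4.44e-09 and 6.81e-05. Jun was the exception: its libraries had 116, 159.5 and 276 CPM as lowest, median and highest in Bmal1ΔcDC and 134, 169 and 394 CPM in control tumour mice, its difference was -0.14 ± 0.11, adjusted p = 0.364, and its 95% confidence interval ran from -0.38 to 0.094. With array weights, which give less weight to libraries that fit poorly, the difference of Jun was -0.23 and its adjusted p 0.0479.

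Bmal1ΔcDC tumour and sham libraries were also compared, in a contrast added after the data were seen. These groups differ in both genotype and injection, and no Bmal1ΔcDC mice received PBS. A part of the genotype and a part of the tumour cells therefore cannot be told apart in this contrast. Bmal1ΔcDC tumour libraries were lower than sham libraries in 3 members (4.30% of all genes tested; 55.8% of all calls were higher, or 39.4% with median-of-ratios scaling): Jun (-0.55 ± 0.11, adjusted p = 0.00517), Nr4a1 (-0.52 ± 0.12, adjusted p = 0.0152) and Fos (-0.30 ± 0.081, adjusted p = 0.0269). For the other 7 members the difference lay between -0.21 for Ier2 and -0.0086 for Atf3, and the 95% confidence intervals bound how far they could differ: -0.33 to 0.072 for Egr1, -0.20 to 0.10 for Dusp1 and -0.52 to 0.15 for Fosb. The call of Fos was lost in 4 of the 24 fits that left out 1 library (Bmal1ΔcDC ZT15 replicate 3, sham ZT3 replicate 3, sham ZT15 replicate 2 or sham ZT21 replicate 3), and with all 44 libraries in 1 fit (-0.30, adjusted p = 0.0601).

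At each injection time taken alone, control tumour was lower than sham in 9 members at ZT3 (8.63% of genes tested), 10 at ZT9 (10.1%), 5 at ZT15 (13.2%) and 8 at ZT21 (5.86%). The members that did not pass were Jun at ZT3 (-0.27), Jun and Atf3 at ZT21 (-0.044 and -0.61) and Jun, Egr1, Atf3, Dusp1 and Zfp36 at ZT15, where they lay between -0.63 for Egr1 and -0.26 for Zfp36. The median difference of the members was -1.08 at ZT3, -1.52 at ZT9, -0.58 at ZT15 and -1.0 at ZT21, against -0.094, 0.0041, -0.11 and -0.013 for all genes. Of all calls 17.6% were higher at ZT3 and 25.1% at ZT15, or 38.3% and 46.0% with median-of-ratios scaling. At ZT21 Zfp36 lost its call in 17 of the 32 fits that left out 1 library and Fosb in 6. At ZT3 Zfp36 lost it in 4 and Fosb in 3, and at ZT15 Fosb in 2 and Junb in 1. With median-of-ratios scaling Zfp36 lost its call at ZT3 (-0.42, adjusted p = 0.133) and at ZT21 (-0.48, adjusted p = 0.081).

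Egr1 showed the widest range across injection times. In control tumour libraries it had 91.9, 78.8, 51.6, 54.2 and 38.6 CPM at ZT9 and 349.7, 318, 315, 309.7 and 197 CPM at ZT15. In sham libraries it had 606, 543 and 565 CPM at ZT9 and 417, 561 and 395 CPM at ZT15. The groups did not overlap at either time, but the gap between the highest control tumour and the lowest sham library was far wider at ZT9. Of all genes tested, 13.3% at ZT9 and 14.7% at ZT15 had every control tumour library below every sham library. The difference of Egr1 was -3.24 ± 0.34, adjusted p = 1.18e-07 at ZT9 and -0.63 ± 0.34, adjusted p = 0.207 at ZT15. A test of whether the difference from sham varied with time called no member after adjustment (0% of genes). Before adjustment 4 members had p under 0.05 (Egr1, with an adjusted p of 0.11, Fos, Jun and Ier2), as had 11.9% of genes.

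Bmal1ΔcDC was higher than control tumour in 4 members at ZT3 (3.06% of genes), 9 at ZT9 (3.78%), 7 at ZT15 (12%) and 9 at ZT21 (9.02%). At ZT15 the median of all genes was 0.25 and that of the members 0.86. With median-of-ratios scaling 3 members were called there, since Fosb, Junb, Atf3 and Dusp1 no longer passed. That scaling called 499 of the 11963 genes higher at ZT15, against 1438 in the main fit. Of all calls 58.8% were higher at ZT3, 81.3% at ZT15 and 63.5% at ZT21, or 39.2%, 44.9% and 42.9% with that scaling. Fos, Ier2 and Nr4a1 were called at all 4 timepoints, and Jun at none, but with median-of-ratios scaling Ier2 lost its call at ZT3 (0.80, adjusted p = 0.0516). Of the 32 fits that left out 1 library, the call was lost at ZT3 in 4 for Egr1, 2 for Ier2 and 1 for Nr4a1, at ZT9 in 6 for Atf3, 4 for Dusp1 and 2 for Fosb, at ZT15 in 4 for Fosb, 3 each for Dusp1 and Junb and 1 for Atf3, and at ZT21 in 1 for Atf3. The largest single difference was that of Nr4a1 at ZT21, where control tumour libraries had 46.7, 31.6, 74.6, 50.5 and 43.1 CPM and Bmal1ΔcDC libraries 390.3, 277 and 322 CPM, without overlap (2.77 ± 0.33, adjusted p = 2.36e-06). At ZT21 13.6% of genes tested had every control tumour library below every Bmal1ΔcDC library. The test of whether the difference between Bmal1ΔcDC and control tumour varied with time called no member (0.0502% of genes), and 3 members had an unadjusted p under 0.05 (Egr1, Zfp36 and Nr4a1), as had 18.3% of genes.

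Within tumour-bearing control mice the mean levels of the members were high at ZT3 and ZT15 and low at ZT9 and ZT21. The mean was highest at ZT15 for 8 members and at ZT3 for Jun and Nr4a1, and lowest at ZT9 for 8 members and at ZT21 for Junb and Dusp1. The means of Egr1 differed 4.72-fold between its highest and lowest timepoint, those of Nr4a1 2.27-fold, Ier2 2.07-fold and Fos 1.97-fold, and those of Junb, Atf3 and Dusp1 by 1.32- to 1.37-fold. A test of any difference among the 4 timepoints called 4 members (Egr1, adjusted p = 0.00271, Ier2, 0.0102, Fos, 0.0165, and Nr4a1, 0.0376), against 5.28% of genes. With median-of-ratios scaling 7 members passed this test and with array weights 9. The 5.28% belongs to the main fit, so these counts do not show whether the members moved more than other genes. Nr4a1 lost its call in 13 of the 20 fits that left out 1 library.

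The 5 control tumour libraries of each time had 306, 234, 204, 98.2 and 190.5 CPM of Egr1 at ZT3 and 58.5, 56.1, 167, 105 and 51.0 CPM at ZT21. With the values at ZT9 and ZT15 above, 9 of the 10 libraries at ZT3 and ZT15 lay above all 10 libraries at ZT9 and ZT21, and the remaining library, at ZT3, lay within the range of ZT21. Averaged over both pairs of timepoints, Egr1 was higher at ZT3 and ZT15 by 1.79 ± 0.24, adjusted p = 0.00129.

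Fos had 984, 801, 709, 524 and 582 CPM at ZT3 and 591, 529, 319, 373 and 359 CPM at ZT9. At ZT15 it had 881, 911, 798, 1016 and 676 CPM, and at ZT21 374, 405, 667, 529 and 371 CPM. The levels of ZT3 and ZT15 overlapped each other, as did those of ZT9 and ZT21, and 8 of the 10 libraries at ZT3 and ZT15 exceeded every library at ZT9 and ZT21. The difference between the pairs of timepoints was 0.81 ± 0.15, adjusted p = 0.00386.

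Nr4a1 had 185, 105, 58.6, 68.7 and 95.9 CPM at ZT3 and 83.1, 41.9, 34.6, 32.2 and 34.6 CPM at ZT9. At ZT15 it had 133, 119, 101, 103 and 54.2 CPM, and its ZT21 values are given above. In 7 of the 10 libraries at ZT3 and ZT15 it was above all libraries at ZT9 and ZT21. The difference was 1.09 ± 0.23, adjusted p = 0.00763. Ier2 differed by 0.95 ± 0.16, adjusted p = 0.00216, with 8 of 10 libraries above.

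Jun had 232, 292, 152, 394 and 223 CPM at ZT3 and 172, 155, 149, 151 and 134 CPM at ZT9. It had 189, 166, 159, 276 and 199 CPM at ZT15 and 177, 159.5, 172, 142 and 136 CPM at ZT21. The library with the highest Jun, replicate 4 at ZT3, was the lowest of its group for Fos, Fosb, Egr1, Ier2, Junb, Zfp36 and Dusp1. Over the pairs of timepoints Jun differed by 0.50 ± 0.14, adjusted p = 0.0292.

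The contrast of ZT3 and ZT15 with ZT9 and ZT21 was chosen after the data were seen, so its p-values describe a pattern and do not test it independently. In control tumour libraries it called 9 members higher at ZT3 and ZT15, against 2.33% of genes (24.5% of all calls were higher, or 51.0% with median-of-ratios scaling), and the median of the members was 0.61 against -0.072 for all genes. Besides those given above, Fosb (0.71), Zfp36 (0.40), Junb (0.36) and Dusp1 (0.33, adjusted p = 0.0462) were called, and Atf3 (0.26 ± 0.15, adjusted p = 0.288) was not. Dusp1 lost its call in 16 of the 20 fits that left out 1 library, Fosb in 11 and Jun in 3 (ZT3 replicate 2, ZT9 replicate 5 or ZT15 replicate 4), and with any 1 library left out between 6 and 9 members were called. The summed macrophage and monocyte markers were at 637 to 1132 CPM at ZT3 and ZT15 and at 440 to 752 CPM at ZT9 and ZT21 in these libraries, and their part was not tested.

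Pair by pair, also chosen after the data were seen, ZT15 was higher than ZT9 in 5 members (3.20% of genes): Egr1, Nr4a1, Ier2, Fos and Zfp36, from 2.27 for Egr1 to 0.50 for Zfp36. ZT15 was higher than ZT21 in 3 members (0.794%), Egr1 (1.89), Ier2 (0.99) and Fos (0.89). ZT3 was higher than ZT9 in 1 member (0.134%), Egr1 (1.68 ± 0.33, adjusted p = 0.0481). ZT3 was higher than ZT21 in no member (0.0251%), where Egr1 was at 1.30 ± 0.33, adjusted p = 0.16. Before adjustment 6 members had p under 0.05 in this pair, as had 11.5% of genes. Of all calls 26.4% were higher at ZT15 than ZT9 and 18.5% at ZT15 than ZT21, or 52.4% and 37.4% with median-of-ratios scaling. These pairwise counts rest on 5 libraries a side and moved with the library left out, to between 3 and 8, 1 and 4, 0 and 2, and 0 and 0 members in that order.

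The 24-h cosinor, which fits 1 rise and fall a day, called no member in control tumour libraries (0.0251% of genes), and none had an unadjusted p under 0.05 (9.20% of genes). ZT9 against ZT21, both in the low phase, called no member (0.226%), again with none under 0.05 unadjusted (11.5%). This does not show that their levels were alike: the difference of Egr1 was -0.38, with a confidence interval from -1.08 to 0.32. ZT3 and ZT15 were not compared directly. A wave of 24 h would not describe levels that were alike at timepoints 12 h apart, but whether they were alike was not tested.

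**Figure D3:**
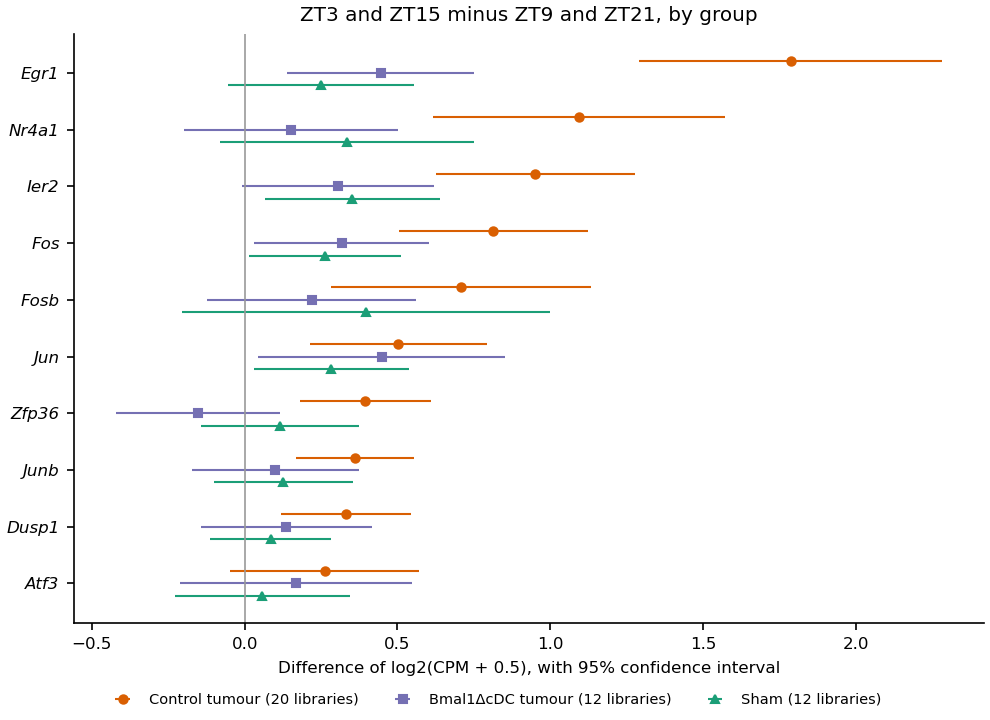
Mean of ZT3 and ZT15 minus mean of ZT9 and ZT21 in log2(CPM + 0.5), with 95% confidence intervals, in control tumour (circles, 20 libraries), Bmal1ΔcDC tumour (squares, 12) and sham (triangles, 12). The control tumour differences run from 0.26 for Atf3 to 1.79 for Egr1, and the other groups lie nearer 0.

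In Bmal1ΔcDC mice no member passed a test over time. The test among 4 timepoints called no member (0% of genes), and 4 members had an unadjusted p under 0.05 (Nr4a1, Egr1, Fos and Jun; 10.3% of genes). The contrast of ZT3 and ZT15 with ZT9 and ZT21 called none (0%), with Egr1 (0.45), Fos (0.32) and Jun (0.45) under 0.05 unadjusted (6.97%). The cosinor called none (0%), with Nr4a1 under 0.05 unadjusted (10.5%), and ZT9 against ZT21 none (0.00836%), with Nr4a1 (-0.92) and Fosb (-0.51) under 0.05 unadjusted (10.9%).

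Nr4a1 in these mice had 326, 210.5 and 232 CPM at ZT3, 143, 165 and 219 CPM at ZT9 and 276, 298 and 258 CPM at ZT15, with its ZT21 values given above. Its lowest library was at ZT9 and its highest at ZT21. The mean of the 3 libraries was lowest at ZT9 for 9 members, and highest at ZT15 for 8.

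In sham mice the mean levels of the members were low at ZT21. The mean was highest at ZT3 for 8 members and at ZT9 for Jun and Egr1, and lowest at ZT21 for 9 members and at ZT15 for Dusp1. Jun had 253, 291 and 355 CPM at ZT3 and 332, 266 and 309 CPM at ZT9, 263, 253 and 215 CPM at ZT15 and 151, 164 and 169 CPM at ZT21, where all 3 libraries were below every other sham library. For Egr1 the values were 473, 538 and 679 CPM at ZT3 and 259.6, 332 and 352 CPM at ZT21, and those ranges did not overlap either. The shares of all genes that separate between sham timepoints in these ways were not counted.

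No test over time called a member in sham libraries. The test among 4 timepoints called none (0%), and 4 had an unadjusted p under 0.05 (Jun, Egr1, Fos and Ier2; 7.44% of genes). The cosinor called none (0%), with Jun, Egr1 and Atf3 under 0.05 unadjusted (7.38%). ZT9 against ZT21 called none (0%), while 5 members were higher at ZT9 with an unadjusted p under 0.05 (5.32%): Jun (0.90), Egr1 (0.87), Ier2 (0.50), Fos (0.49) and Atf3 (0.43). The contrast of ZT3 and ZT15 with ZT9 and ZT21 called none (0%), with Fos (0.26), Ier2 (0.35) and Jun (0.28) under 0.05 unadjusted (5.76%). With 3 libraries a timepoint in these groups and 5 in control tumour, a call in one group and none in another does not show that the groups differ, and the tests of that difference are the interactions above.

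The members also moved together between libraries of the same group and timepoint. As deviations from the mean of their group and timepoint in log2(CPM + 0.5), all 45 pairs of members had a positive Pearson correlation over the 44 libraries, with a median of 0.697 and a range from 0.055 for Jun with Dusp1 to 0.854 for Fos with Egr1. Fos followed the mean of the other members most closely (0.901), then Ier2 (0.884), Junb (0.861) and Egr1 (0.852), and Jun least (0.184). Within groups the median was 0.804 with 39 of 45 pairs positive in control tumour, 0.618 with 44 in Bmal1ΔcDC and 0.546 with 37 in sham libraries. The lowest pairs were Jun with Zfp36 in control tumour (-0.24), Fosb with Dusp1 in Bmal1ΔcDC (-0.12) and Atf3 with Nr4a1 in sham libraries (-0.49). The mean deviation of the members had a correlation of -0.0067 with the log2 number of reads, also taken as a deviation from the mean of group and timepoint. It therefore holds no differences in depth between groups or timepoints. By the medians given above, estimated depth was lowest in control tumour libraries, where most members were also lowest. The part of depth in the differences between groups was not tested. These values describe the libraries, and members in a library share its cells, its handling and its depth.

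**Figure D4:**
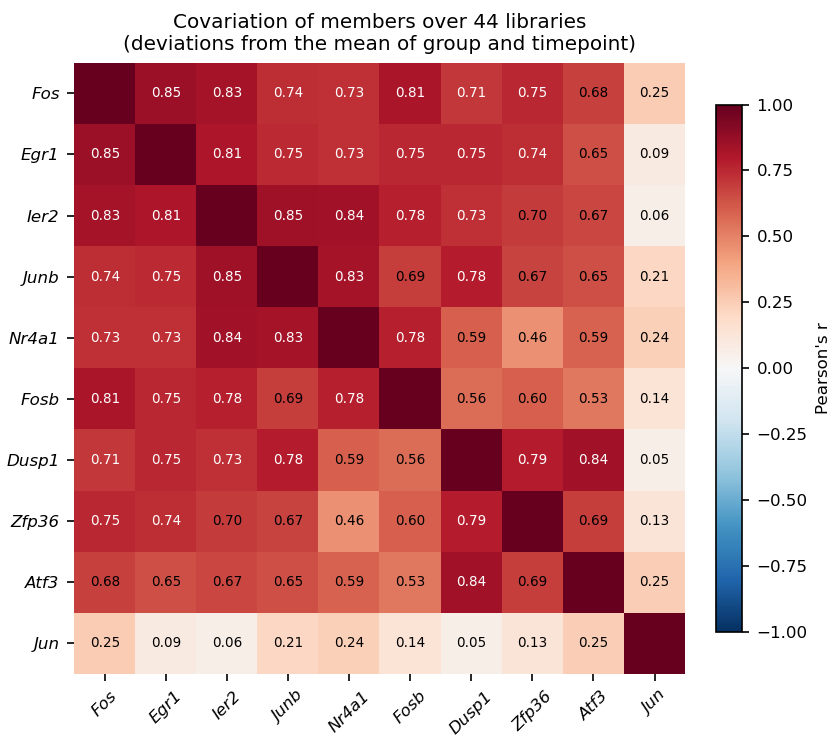
Pearson correlation between members over 44 libraries, of deviations of log2(CPM + 0.5) from the mean of group and timepoint; colour and number give r. Jun stands apart with values from 0.05 to 0.25, while the other members correlate with each other at 0.46 to 0.85.

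Of the other 11953 genes tested, the 10 whose deviations were most like the mean of the members were Btg2 (0.825), Nfkbiz (0.811), Tnf (0.807), Socs3 (0.767), Nfkbid (0.760), Nr4a2 (0.731), Dusp5 (0.730), Tob2 (0.725), Bhlhe40 (0.712) and Ier3 (0.710), over 44 libraries. All genes had a median of 0.019 and a central 95% range from -0.317 to 0.385. Btg2, Nfkbiz, Nr4a2 and Ier3 are themselves immediate early genes, Tnf is an inflammatory cytokine gene, and Socs3 and Dusp5 encode inhibitors of cytokine and ERK signalling. In Bhlhe40, a repressor that also acts on clock genes, the likeness was 0.852 in control tumour, 0.677 in Bmal1ΔcDC and -0.134 in sham libraries.

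Genes around the members in the pathway were described by lists, against 37.9% of all genes called in either direction in control tumour against sham and 33.7% in Bmal1ΔcDC against control tumour. The shares called were 75% in both comparisons for the other immediate early genes, 69.2% and 46.2% for the other AP-1 and bZIP genes, 80% and 60% for the other phosphatases and 53.3% and 60% for the heat shock genes. The MAP kinases and SRF, TCF and CREB factors (32% and 44%) and the decay factors (45.5% and 36.4%) lay near the share of all genes. Of 28 other immediate early genes tested, 18 were lower and 3 higher in control tumour than in sham libraries, with a median difference of -0.39, and 18 were higher and 3 lower in Bmal1ΔcDC than in control tumour libraries, with a median of 0.45. The named genes were Egr2 at -2.64 (adjusted p = 5.85e-12), Plk3 at -2.20 (adjusted p = 2.11e-11), Myc at -1.36 (adjusted p = 1.23e-10) and Klf4 at -1.73 (adjusted p = 2.29e-09) against sham. They were Klf2 at 1.06 (adjusted p = 3.07e-09), Egr2 at 2.20 (adjusted p = 4.24e-09), Tiparp at 0.96 (adjusted p = 2.77e-07) and Btg2 at 0.87 (adjusted p = 5.1e-07) in Bmal1ΔcDC against control tumour. Egr2 is the sister factor of Egr1, Klf2 and Klf4 are Krüppel-like factors, and Plk3 is a stress kinase. The same 28 genes had 6 called higher at ZT3 and ZT15 in control tumour libraries and none lower, with a median of 0.32, against the 2.33% of all genes called higher and their median of -0.072 given above.

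Of 13 other AP-1 and bZIP genes, 6 were lower and 3 higher in control tumour than in sham libraries (median -0.12), among them Fosl2 at -1.61 (adjusted p = 1.22e-08), Jund at -0.93 (adjusted p = 1.25e-08) and Maf at -1.92 (adjusted p = 1.51e-08). In Bmal1ΔcDC against control tumour 5 were higher and 1 lower (median 0.15), among them Jund at 0.94 (adjusted p = 1.65e-10), Bach1 at -1.04 (adjusted p = 1.71e-05) and Fosl2 at 0.90 (adjusted p = 0.000101). Jund and Fosl2 code for dimer partners in AP-1, whereas Maf is known as a macrophage factor and Bach1 as a repressor of haem-responsive genes.

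Of 10 other dual specificity phosphatases, 6 were lower and 2 higher in control tumour than in sham (median -0.48), among them Dusp6 at -1.22 (adjusted p = 4.01e-07), Dusp14 at -0.93 (adjusted p = 1.28e-05), Dusp4 at -1.33 (adjusted p = 1.49e-05) and Dusp16 at 0.36 (adjusted p = 0.0014). In Bmal1ΔcDC against control tumour 5 were higher and 1 lower (median 0.29), among them Dusp14 at 0.85 (adjusted p = 3.19e-05), Dusp16 at -0.46 (adjusted p = 0.000194), Dusp6 at 1.03 (adjusted p = 0.00023) and Dusp5 at 0.48 (adjusted p = 0.000695). Dusp4, Dusp5 and Dusp6 act on ERK.

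Of 25 MAP kinases and SRF, TCF and CREB factors, 4 were lower and 4 higher in control tumour than in sham, with a median of -0.019; the named genes were Mapk14 at -0.70 (adjusted p = 2.56e-05), Map2k3 at -0.35 (adjusted p = 0.000509), Crem at -0.56 (adjusted p = 0.00186) and Crtc3 at 0.35 (adjusted p = 0.00342). In Bmal1ΔcDC against control tumour 8 were higher and 3 lower (median 0.11), among them Crtc3 at -1.37 (adjusted p = 4.09e-10), Map2k3 at 0.37 (adjusted p = 8.58e-05), Elk3 at 0.26 (adjusted p = 0.000624) and Crem at 0.55 (adjusted p = 0.000743). Map2k3 activates p38, which Mapk14 encodes, and Crtc3 is a coactivator of CREB.

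Of 11 decay factors of AU-rich mRNAs, 3 were lower and 2 higher in control tumour than in sham (median 0.020), among them Zfp36l2 at -1.11 (adjusted p = 2.93e-08), Zfp36l1 at -0.37 (adjusted p = 0.000265), Khsrp at 0.38 (adjusted p = 0.00224) and Hnrnpd at 0.53 (adjusted p = 0.00473). In Bmal1ΔcDC against control tumour 4 were higher and none lower (median 0.13): Zfp36l2 at 1.11 (adjusted p = 4.76e-08), Cnot3 at 0.43 (adjusted p = 2.57e-05), Cnot2 at 0.24 (adjusted p = 0.00697) and Cnot8 at 0.16 (adjusted p = 0.0266). Zfp36l1 and Zfp36l2 are relatives of Zfp36, and the Cnot genes encode the deadenylase complex it recruits.

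Of 15 heat shock genes, another mark of stressed cells, 6 were lower and 2 higher in control tumour than in sham, with a median of -0.077; the named genes were Hspa5 at -0.66 (adjusted p = 2.76e-11), Bag3 at -0.47 (adjusted p = 3.93e-06), Hspa1b at 1.57 (adjusted p = 1.97e-05) and Hspa1a at 1.19 (adjusted p = 0.000162). Hspa1a and Hspa1b are nearly identical copies, so how reads were divided between them is uncertain. In Bmal1ΔcDC against control tumour 7 were higher and 2 lower (median 0.12), among them Hspa5 at 0.78 (adjusted p = 1.69e-11), Bag3 at 0.56 (adjusted p = 1.39e-07), Dnaja1 at 0.53 (adjusted p = 7e-07) and Hspd1 at 0.36 (adjusted p = 1.35e-05). At ZT3 and ZT15 in control tumour libraries 6 of the 15 were higher and none lower, with a median of 0.23, against the same 2.33% and -0.072 of all genes. In correlation with the members between libraries the heat shock genes had a median of 0.048, against 0.519 for the other immediate early genes.

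Bmal1ΔcDC against sham called 9.73% of all genes tested in either direction. Among the other immediate early genes 7 were lower and 1 higher, named Mcl1 at 0.54 (adjusted p = 0.00734), Ier3 at -0.70 (adjusted p = 0.01), Nfkbiz at -0.46 (adjusted p = 0.0159) and Myc at -0.46 (adjusted p = 0.0186). Of the AP-1 and bZIP genes 3 were lower, Maf at -1.22 (adjusted p = 0.0131), Batf at -0.36 (adjusted p = 0.0233) and Fosl2 at -0.71 (adjusted p = 0.034), and of the phosphatases 1 was lower and 2 higher, Dusp5 at 0.40 (adjusted p = 0.019), Dusp4 at -0.53 (adjusted p = 0.0242) and Dusp2 at 0.76 (adjusted p = 0.0275). The kinase list included Crtc3 at -1.02 (adjusted p = 0.000751) and Crtc2 at 0.29 (adjusted p = 0.0237), the decay list had Zfp36l1 at -0.32 (adjusted p = 0.00869) and Elavl1 at 0.21 (adjusted p = 0.0422), and the heat shock list had Hspa1a at 0.75 (adjusted p = 0.00857), Hspa1b at 0.78 (adjusted p = 0.0149), Dnajb1 at 0.32 (adjusted p = 0.0169) and Dnaja1 at 0.21 (adjusted p = 0.0422). The cosinor called no gene of the 6 lists in any group. Of the 15 heat shock genes, 8 had an unadjusted p under 0.05 in control tumour, 10 in Bmal1ΔcDC and 6 in sham libraries (53.3%, 66.7% and 40%), against the 9.20%, 10.5% and 7.38% of all genes given above. In the other 5 lists between 0 and 5 genes did in each group. Their shares ran from 0% to 27.3% of a list, the highest being that of the decay factors in Bmal1ΔcDC libraries.

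Markers of several other cell types differed between the groups in the same direction as the members. The 12 macrophage and monocyte markers, none of them at 0 in all libraries, summed to 440 to 1132 CPM in control tumour, 910.0 to 3428 CPM in Bmal1ΔcDC and 1809 to 3317 CPM in sham libraries. Most of this sum was Lyz2, which DCs also express, with medians of 564, 1309 and 2063 CPM in that order. Beyond Lyz2 the same order of medians, lowest in control tumour and highest in sham, was seen for the complement genes C1qa (18.9, 23.3 and 46.9 CPM), C1qb (30.4, 47.1 and 79.2) and C1qc (23.6, 40.0 and 73.2). It was seen for Cd68 (38.9, 67.6 and 101), for the monocyte gene Ly6c2 (15.4, 27.3 and 72.0), and for Marco (3.64, 9.80 and 14.9) and Cd14 (4.87, 7.79 and 14.2). Siglec1 had medians of 3.58, 7.88 and 6.97 CPM. Adgre1 (F4/80) had medians of 22.3, 30.8 and 28.5 CPM, and Fcgr1 and Mertk, which define macrophages, had medians of at most 2.53 CPM in every group and were at 0 in 3 control tumour libraries each; Mertk was also at 0 in 7 Bmal1ΔcDC and 3 sham libraries.

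Over the 44 libraries the mean of the members and the log2 sum of these markers had a correlation of 0.898, which holds the differences between groups. Within a group it was 0.782 in control tumour, 0.701 in Bmal1ΔcDC and 0.320 in sham libraries, which holds the differences between timepoints. As deviations from the mean of group and timepoint the correlation over the 44 libraries was 0.296. Over all marker lists that correlation ran from -0.23 for stromal and endothelial cells to 0.36 for granulocytes. It was 0.14 for NK cells, 0.072 for T cells and 0.011 for B cells. By their medians in control tumour and sham libraries, the summed markers were also lower in control tumour for NK cells (91.9 and 242 CPM), conventional DCs of type 2 (206 and 361), conventional DCs of type 1 (839 and 1161), T cells (813 and 1038), B cells (139 and 169) and stromal and endothelial cells (28 and 52.8). Those of melanoma cells were at 2.24 and 3.72 CPM and those of Langerhans cells at 1293 and 1331 CPM. Those of migratory DCs were higher, at 22590 and 19975 CPM, and those of erythroid cells were at 0.787 and 0.349 CPM. In Bmal1ΔcDC libraries the summed markers of Langerhans cells were at 1534 to 2243 CPM (median 1923), against 1039 to 1540.1 CPM in control tumour libraries. The medians in Bmal1ΔcDC libraries were 131 CPM for NK cells, 285 for conventional DCs of type 2, 869 for those of type 1, 864 for T cells, 150.1 for B cells, 49.2 for stromal and endothelial cells, 2.95 for melanoma cells, 0.557 for erythroid cells and 22440 for migratory DCs. The 9 granulocyte markers in the table, of which 5 passed the filter on low values, summed to medians of 3.17 CPM in control tumour, 6.94 in Bmal1ΔcDC and 11.1 in sham libraries, and as deviations from the mean of group and timepoint their sum had a correlation of 0.358 with the members. All libraries came from cells sorted as CD45+ CD11c+ MHCII high, and the part of these other cells in the differences of the members was not tested.

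**Figure D5:**
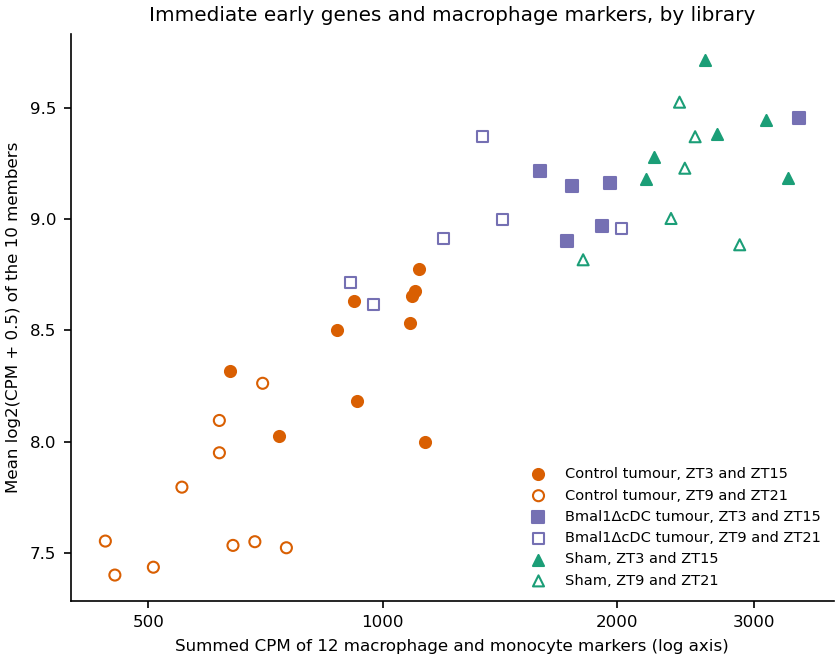
Mean log2(CPM + 0.5) of the 10 members against the summed CPM of 12 macrophage and monocyte markers (log axis), 1 point a library; filled points are ZT3 and ZT15, open points ZT9 and ZT21. Control tumour libraries lie at 7.40 to 8.77 on the member axis, Bmal1ΔcDC libraries at 8.62 to 9.46 and sham libraries at 8.82 to 9.72, so that control tumour and Bmal1ΔcDC overlap on both axes and sham lies apart from control tumour.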

How the data were processed

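Libraries were made from sorted cells with SMART-Seq v4 and Nextera XT, which do not mark strand, and sequenced as single reads. The values are CPM that the authors deposited in 1 table for 44 libraries: per the methods and the submitters' processing notes, reads were aligned with STAR 2.7.0 to mm10, counted per gene with HTSeq 0.9.1 and scaled to library size with edgeR. Each deposited CPM column sums to 1000000, and no column was left unmapped. At the estimated depth 87.4% to 89.3% of values in every library were whole reads (tolerance 0.01 reads), so no count test was run. The members were whole in all libraries.

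Genes that reached 1 CPM in 5 or more libraries were kept (11963 of 14699). log2(CPM + 0.5) was fitted with limma 3.58.1 (R 4.3.3), with a Benjamini-Hochberg adjusted p under 0.05 as a call. Tumour against sham and Bmal1ΔcDC against control were fitted on the 32 libraries of both groups by group and timepoint, and time within the libraries of 1 group, also as a 24-h cosinor. Scripts were tested on simulated data. Fold changes are ratios of mean CPM. Samples were grouped by their labels. p-values measure the spread between mice of these experiments. Start regions were matched by symbol (8 of 10), and exon lengths came from GENCODE M21. Depth differed between groups, and counting error is small at these depths. Named genes were the 10 members, up to 4 genes per list with the smallest p in each comparison averaged over time, and the 10 genes most like the members. Some genes that this rule names are not reported here. The members and lists were chosen with earlier results of these data known. The alternatives were other pseudocounts, filters, scaling, variance models, weights, a fit of all 44 libraries, a replicate block and each library left out.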

Additional observations from a re-analysis of the deposited data

Results flagged for a closer look

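In 5 of 40 groups of 5 control tumour libraries (10 members at 4 timepoints), 1 library stood far from the other 4 by Dixon's ratio, which chance alone exceeds in about 1 of 20 groups. Of these 5, 4 were the same library, replicate 5 at ZT15. It had 22.3 CPM of Fosb, where the others had 42.2 to 52.0, and 1302 CPM of Junb, where the others had 1786 to 1913. It had 197 CPM of Egr1 against 310 to 350 and 1135 CPM of Dusp1 against 1623 to 1821 in the others. At ZT9, replicate 1 had 83.1 CPM of Nr4a1, where the others had 32.2 to 41.9.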

How the results depend on the processing

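Of the member differences followed singly, none that was called changed sign under any alternative. The pairs of timepoints in control tumour that gave calls were followed by their counts only. Among those not called, Bmal1ΔcDC against control tumour turned to -0.012 for Jun and -0.12 for Zfp36 at ZT15 with median-of-ratios scaling, and for Jun at ZT21 to -0.026 with that scaling and -0.12 with array weights. With 1 library left out, Jun at ZT21 ran from -0.22 to 0.28 in that comparison and from -0.090 to 0.0078 against sham, and Atf3 in Bmal1ΔcDC against sham from -0.066 to 0.035. Averaged over time 10 members were called against sham in every fit and 9 in Bmal1ΔcDC against control tumour, or 10 with array weights, which added Jun. Bmal1ΔcDC against sham called 2 to 4. The counts over time in control tumour also moved. The test among 4 timepoints called 4 members, 7 with median-of-ratios scaling, limma's trend or all 44 libraries in 1 fit, 8 without 3 libraries that stood apart (ZT3 replicate 4, ZT9 replicate 1 and ZT15 replicate 5, left out after the data were seen) and 9 with array weights. In the same order of settings ZT15 against ZT21 went from 3 to 6, 6, 6, 7 and 7 members and ZT15 against ZT9 from 5 to 8 in each. ZT3 against ZT9 went from 1 member to 2, 2, 4, 3 and 4, and to 0 with a pseudocount of 0.1 or no filter; ZT3 against ZT21 went from 0 to 1 with all 44 libraries. Counts of 0 became 1 for the test among timepoints and for ZT9 against ZT21 in sham with limma's trend, for the interaction of tumour and time without the 3 libraries, and for that of genotype and time with array weights. With 1 library left out ZT15 against ZT21 called 1 to 4 members, ZT15 against ZT9 3 to 8 and ZT3 against ZT9 0 to 2. Over all genes, median-of-ratios scaling moved the higher calls from 95 to 182 for ZT15 against ZT21. It moved them from 383 to 669 for ZT15 against ZT9 and from 16 to 33 for ZT3 against ZT9. For other settings and tests in this section the calls over all genes are not given. Such counts do not show whether the members moved more than other genes. The cause was not tested.

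Replicate numbers did not pair samples: same-numbered libraries had correlations of deviations from -0.237 to 0.190, and 8 of 44 libraries correlated best with their own number. With a replicate block ZT3 against ZT9 called 0 members, the contrast of alternate timepoints 8 in place of 9, and the timepoints taken singly 27 in place of 32 against sham and 23 in place of 29 against control. Median-of-ratios scaling shifted the median of all genes by -0.20 at ZT15 and -0.12 at ZT21 between Bmal1ΔcDC and control tumour, by 0.14 for ZT15 against ZT9 in control tumour and by 0.12 for ZT9 against ZT21 in Bmal1ΔcDC libraries.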
